A study of Homo sapiens with 2 samples.

Results

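Peaks of the transcription factor ZFX on chromosome 7 were described by chromosome arm in DAOY cells, an established line from a human medulloblastoma. All peaks of the deposited list on chromosome 7 were taken, 945 of 14471, and divided at the centromere (58.05 to 61.05 Mb, hg19) into 376 on the short arm and 569 on the long arm. No peak lay within the centromere. The study held 2 samples of DAOY cells, 1 precipitated with a rabbit polyclonal antibody against ZFX and 1 of sheared chromatin without precipitation. The peaks come from the first, and the second was not analysed here. No replicate stands behind them, and the values below describe how peaks vary along and between chromosomes within this single library. The score of a peak is the authors' own, has no stated unit, and was compared only within the list.

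ZFX is a zinc finger protein encoded on the X chromosome that binds DNA by its sequence, mostly at promoters rich in CpG, and is known for its part in the self-renewal of stem cells. Medulloblastoma is a tumour of the cerebellum, and one class of it is driven by the Hedgehog pathway. Chromosome 7 carries several genes of that pathway, the transcription factor gene GLI3 on the short arm and the ligand gene SHH and the receptor component gene SMO on the long arm. It also carries the HOXA cluster of homeobox genes on the short arm and the Williams-Beuren region on the long arm, which is lost in the syndrome of that name. Gene positions on hg19 and the sequence under the peaks were not analysed here, so nothing below ties a peak to one of these genes.

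Peaks were somewhat denser on the short arm than on the long arm, and the interval of the ratio included 1 per Mb but not per gene. On the short arm 376 peaks spanned 56.4 Mb, from 89513 to 56441326, or 6.67 peaks per Mb. On the long arm 569 peaks spanned 96.7 Mb, from 61967102 to 158649893, or 5.89 peaks per Mb. The ratio of short to long was 1.13, with an interval of 0.993 to 1.29 that included 1. The short arm held 39.8% of the chromosome's peaks (exact 95% interval 36.7% to 43.0%) on 36.8% of the summed spans. It carries 302 of the 938 protein-coding genes of the chromosome (32.2%) in the RefSeq table of GRCh38.p14. Per 100 genes the short arm had 124.5 peaks and the long arm 89.5, a ratio of 1.39 (1.22 to 1.59). The interval treats peaks as independent and holds the gene count fixed.

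Neither arm stood out in density among the autosomes. Of 39 autosomal arms with 20 peaks or more, the short arm was the 12th and the long arm the 16th in peaks per Mb, and the other 37 arms ranged from 1.52 to 20.8 with a median of 5.003. On 17 autosomes both arms could be compared, and the short arm was denser on 9 of them. The median of the 17 ratios of short to long was 1.13, and chromosome 7 was itself the middle one.

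Along both arms, as on the other autosomes, many peaks lay in a few windows. Of the 1 Mb windows with 19 peaks or more, the richest 5% on the autosomes, 5 lay on the short arm and 6 on the long arm. These were 8.77% of the short-arm and 6.12% of the long-arm windows, against 5.08% of those of the other autosomes. They held 111 of the 376 short-arm peaks (29.5%, exact 95% interval 24.95% to 34.4%) and 171 of the 569 long-arm peaks (30.1%, 26.3% to 34.0%), against 26.1% of all autosomal peaks. These shares differed by less than their intervals, and the lower bound of the short arm lay below the autosomal value. The median window held 4 peaks on the short arm and 3.5 on the long arm, and 3 on the other autosomes. Windows without a peak made up 12.3% of the short arm (7 of 57) and 17.3% of the long arm (17 of 98), and 25.04% of the windows of the other autosomes (661 of 2640). On chromosome 7 the windows between the arms, across the centromere, were left out, while on the other autosomes such windows were kept. The medians and shares of windows are therefore not on a like footing, and the 25.04% includes windows at centromeres.

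**Figure D1:**
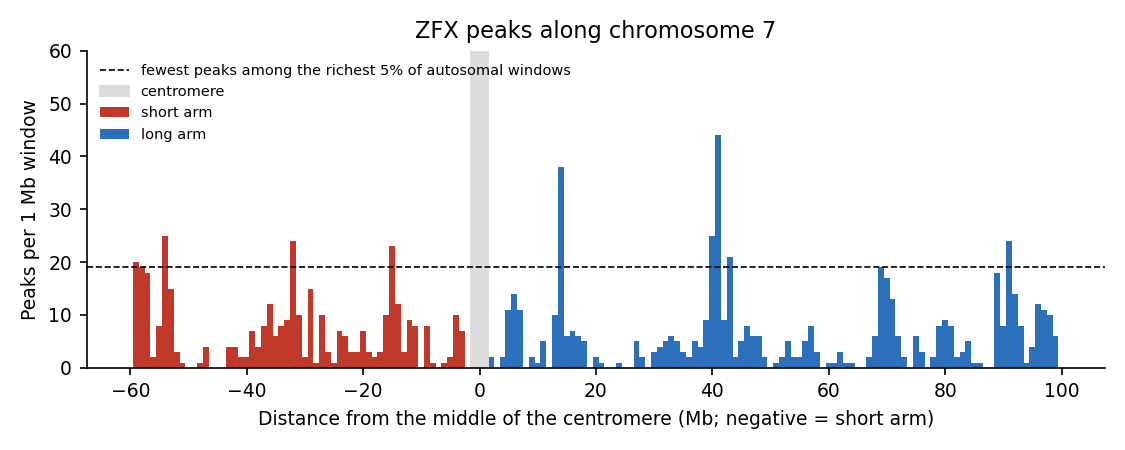
Number of ZFX peaks in each 1 Mb window of chromosome 7 (y axis) by distance from the middle of the centromere in Mb (x axis), with the short arm in red on the left and the long arm in blue on the right. The dashed line marks 19 peaks, the fewest in the richest 5% of autosomal windows, and the tallest bar is the long-arm window with 44 peaks.

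The richest window of the chromosome lay on the long arm between 100 and 101 Mb, with 44 peaks, and only 3 autosomal windows held more. Their median score was 134 and the highest 576. None reached 1000, as did only 2.09% of all autosomal peaks, a share at which 44 peaks may well hold none. The window before it, between 99 and 100 Mb, held 25 peaks, with 181 as their median score and 2441 as the highest. Together these 2 windows carried 69 peaks, 12.1% of the long arm. The second richest window, between 73 and 74 Mb in the part of the long arm known for the Williams-Beuren region, held 38 peaks. Their median score was 104, below the 109 of the list, although the highest-scoring peak of the chromosome lay among them. Of these 38 peaks, 20 (52.6%) had another peak within 1 kb.

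The richest windows of the short arm were smaller and spread over its length. Between 5 and 6 Mb lay 25 peaks with a median score of 146, of which 16 (64.0%) had another peak within 1 kb. Over all autosomal peaks this share was 32.2%. It was 37.5% between 27 and 28 Mb, 34.8% between 44 and 45 Mb, and 30.0% and 52.6% in the first 2 windows of the arm. Between 27 and 28 Mb, in the part of the arm known for the HOXA cluster, lay 24 peaks, with 126 as their median score and 530 as the highest. Between 44 and 45 Mb lay 23 peaks with a median score of 221, the highest of these 3 medians, and 17 of the 23 scored above the median of the list. At the tip of the arm, the first 2 windows held 20 and 19 peaks.

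The longest stretch without a peak crossed the centromere and measured 5.53 Mb. The last short-arm peak, at 56441157 to 56441326, lay 1.61 Mb before the centromere and scored 415 over 170 bp, the narrowest of that arm. The first long-arm peak, at 61967102 to 61967698, lay 0.917 Mb beyond it and scored 146 over 597 bp. Away from the centromere, the longest stretches lay on the short arm between 12759433 and 16460252 (3.70 Mb) and between 8008793 and 11013598 (3.00 Mb). Those of the long arm lay between 123389846 and 126584337 (3.19 Mb) and between 83671634 and 86689075 (3.02 Mb). Stretches over 1 Mb numbered 7 on the short arm, with 15.03 Mb in all, and 20 on the long arm, with 35.1 Mb.

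Typical scores were close to those of the other autosomes, and on both arms scores of 500 or more took a larger share of the peaks. On the short arm the share at 200 or more was close to the autosomal one. Its shares at 1000 and 2000 rested on few peaks, and their intervals included the autosomal values. The median score was 111 on the short arm (quartiles 67.0 and 232) and 120 on the long arm (66.6 and 302), against 109 on the other autosomes (65.4 and 221). Scores above the median of the list were reached by 190 short-arm peaks (50.5%, exact 95% interval 45.4% to 55.7%) and 305 long-arm peaks (53.6%, 49.4% to 57.8%), and by 50.1% of all autosomal peaks. Both intervals included the autosomal value. At the weak end, 127 short-arm peaks (33.8%) and 176 long-arm peaks (30.9%) scored under 75, against 33.2% of autosomal peaks. At 200 or more the short arm had 107 peaks (28.5%, 23.9% to 33.3%), the same as the 28.5% of all autosomal peaks, and the long arm 196 (34.4%, 30.5% to 38.5%). Scores of 500 or more were reached by 46 short-arm peaks (12.2%, 9.10% to 15.98%) and 68 long-arm peaks (11.95%, 9.40% to 14.9%), against 8.26% of all autosomal peaks. The short arm was the 1st and the long arm the 2nd of the 39 arms in this share, close to the next arm at 11.8%.

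**Figure D2:**
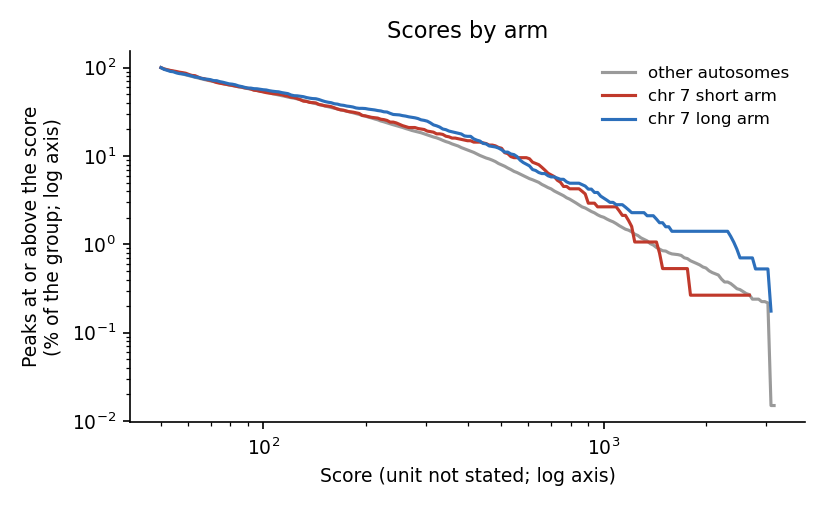
Share of peaks at or above each score (y axis, percent of the group, log axis) by score (x axis, unit not stated, log axis) for the short arm, the long arm and the other autosomes. The 3 lines run together at low scores, and at 500 both arms lie at about 12% and the other autosomes at 7.99%.

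At 1000 or more both arms had larger shares than the autosomes, on few peaks, with intervals that did not set them apart. At 2000 the long arm lay above the autosomes. Scores of 1000 or more were reached by 10 short-arm peaks (2.66%, exact 95% interval 1.28% to 4.84%) and 19 long-arm peaks (3.34%, 2.02% to 5.17%), against 2.09% of autosomal peaks. Both intervals included the autosomal value. At 2000 or more the count was 1 on the short arm (0.266%, 0.00673% to 1.47%) and 8 on the long arm (1.41%, 0.609% to 2.75%), against 0.567% of all autosomal peaks. These counts are small, and the intervals of the arms overlap.

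On the long arm the highest score, 3154, belonged to a peak of 1578 bp at 73587943 to 73589520, the 3rd highest of the whole list. Peaks at 128170732 to 128172650 (1919 bp) and at 129251078 to 129252416 (1339 bp) shared the score 3100 with 26 others of the list. The second of these had a neighbouring peak only 6 bp away. Of the 31 peaks of the list at 3100 or more, 28 had exactly 3100, and why was not tested. The order of peaks at this height is thus uncertain. A peak of 2135 bp at 148395140 to 148397274 scored 2797. The next, at 135194258 to 135194961, reached 2475 over only 704 bp. A peak of 1445 bp at 99155695 to 99157139 scored 2441. These 6 peaks lay between 12.5 and 87.3 Mb from the centromere, and 2 of them were over 1 Mb apart in neighbouring windows between 128 and 130 Mb.

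On the short arm the highest score was 2696, in a peak of 3013 bp at 39988526 to 39991538 that was also the widest of the arm and the 8th widest of the list. Its nearest neighbour was 182 kb away. The next scores were much lower. A peak of 1269 bp at 33101724 to 33102992 scored 1796, and a peak of 1357 bp at 55433267 to 55434623, which lay 2.62 Mb from the centromere, scored 1472. A peak of 1150 bp near the tip, at 855927 to 857076, scored 1432. The peaks at 43945371 to 43946568 (1198 bp) and at 32529465 to 32530147 (683 bp) scored 1234 and 1219. None of these peaks was checked for repeats or set against the input.

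Peaks on chromosome 7 were wide, and this held at equal score. The median width was 596.5 bp on the short arm (quartiles 449 and 858) and 567 bp on the long arm (393 and 855), against 476 bp on the other autosomes (343 and 690). These were the 1st and the 2nd of the 39 arms, and the highest of the other 37 was 557 bp. Taken whole, chromosome 7 had the widest median peak of the 22 autosomes, 584 bp, and the other 21 ranged from 411 to 552 bp. Peaks wider than the 481 bp median of the list made up 258 of 376 on the short arm (68.6%, exact 95% interval 63.7% to 73.3%) and 355 of 569 on the long arm (62.4%, 58.3% to 66.4%), against 50.3% of all autosomal peaks. The widest peak of the chromosome covered 3380 bp on the long arm (104651548 to 104654927, score 935) and was the 4th widest of the list. The second widest of the long arm covered 2797 bp at 100463132 to 100465928 with a score of 576, and that of the short arm 2476 bp at 44923387 to 44925862 with a score of 736.

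Wider peaks had higher scores on both arms, with a Spearman correlation of 0.777 across the short-arm peaks (n = 376) and 0.824 across the long-arm peaks (n = 569), and 0.848 across those of the other autosomes (n = 13334), all peaks of 1 library. Widths were therefore set side by side within classes of score. Among the weakest peaks, with scores from 50 to 75, the median width was 415 bp on the short arm and 345 bp on the long arm, against 312 bp on the other autosomes, where single chromosomes ranged from 268 to 348 bp. From 100 to 150 it was 623.5 bp on the short arm, 544 bp on the long arm and 503 bp elsewhere. From 150 to 250 the long arm had 661 bp, close to the 642 bp of the other autosomes, and the short arm 761.5 bp. At 500 or more the arms were alike, with 1194 bp on the short arm and 1209 bp on the long arm, against 1049 bp. The short arm lay above each of the other 21 autosomes in 5 of these 6 classes. Chromosome 7 as a whole did so in 4 of 6.

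**Figure D3:**
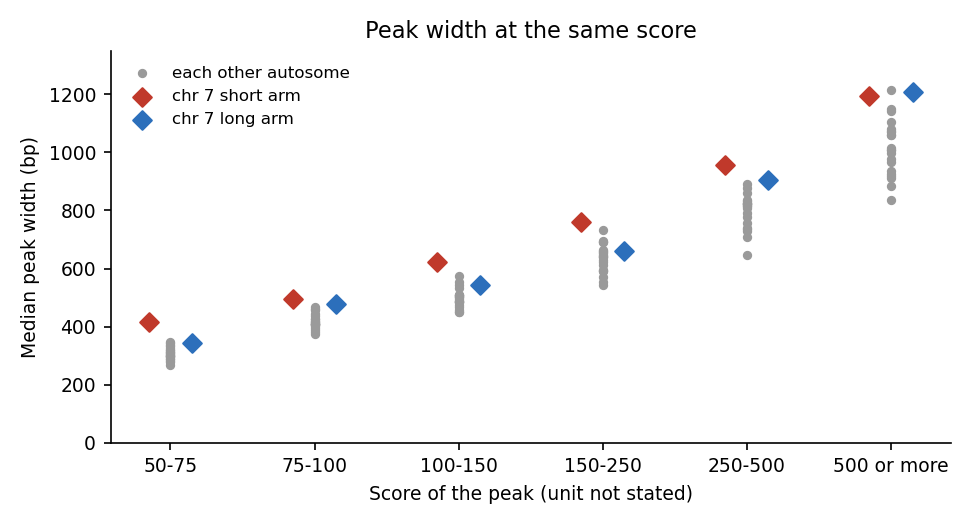
Median peak width in bp (y axis) in 6 classes of peak score (x axis, unit not stated) for the short arm (red), the long arm (blue) and each of the other 21 autosomes (grey points). In the class from 50 to 75 the short arm lies at 415 bp, above the highest other autosome at 348 bp, and the long arm lies at 345 bp.

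With 20 finer classes of score, 279 of 376 short-arm peaks (74.2%, exact 95% interval 69.5% to 78.6%) were wider than the median of the other autosomes in their class. Among long-arm peaks the count was 361 of 569 (63.4%, 59.3% to 67.4%). The same share over all autosomal peaks, each set against the other chromosomes, was 49.9%. The short arm was the 1st of the 39 arms, followed by the short arm of chromosome 9 with 66.5% (58.8% to 73.5%), and the long arm was the 4th. The intervals of these 2 short arms overlapped, and the other 37 arms ranged from 25.2% to 66.5%. Copies of chromosome 7 in this line and the input signal were not measured here, and their part in the width was not tested.

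The wide peaks were not spread evenly over the chromosome. On the short arm the end of the arm differed from the rest. In the first 10 Mb, 56 of 111 peaks (50.5%, exact 95% interval 40.8% to 60.1%) were wider than other autosomes at the same score, close to the background of 49.9%. In the rest of the arm the count was 223 of 265 (84.2%, 79.2% to 88.3%), and the median width was 621 bp against 467 bp in the first 10 Mb. The weakest peaks showed it too, with a median of 306 bp in the first 10 Mb (41 peaks with scores from 50 to 75) and 483.5 bp in the rest (86 peaks). Shares of peaks with scores over the list's median were nearer to each other, 47.7% (38.2% to 57.4%) and 51.7% (45.5% to 57.9%). The limit of 10 Mb was chosen after these values were seen.

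On the long arm wide and narrow stretches followed each other. Between 75 and 95 Mb only 14 of 55 peaks (25.5%, exact 95% interval 14.7% to 39.0%) were wider than other autosomes at the same score, and the median width was 387 bp. Between 95 and 135 Mb it was 190 of 254 (74.8%, 69.0% to 80.02%), with a median width of 660 bp. Between 135 and 145 Mb it was 16 of 41 (39.0%, 24.2% to 55.5%), and beyond 145 Mb it was 77 of 117 (65.8%, 56.5% to 74.3%). The part from 125 to 135 Mb reached 60 of 71 (84.5%, 74.0% to 92%), as high as the inner short arm. Median scores followed these steps in part. They were 98.8 between 75 and 95 Mb and 131 between 95 and 135 Mb, but 96.5 in the wide part from 125 to 135 Mb and 112 in the narrower one from 135 to 145 Mb. These stretches were chosen after their values were seen, and the differences between them were not tested.

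**Figure D4:**
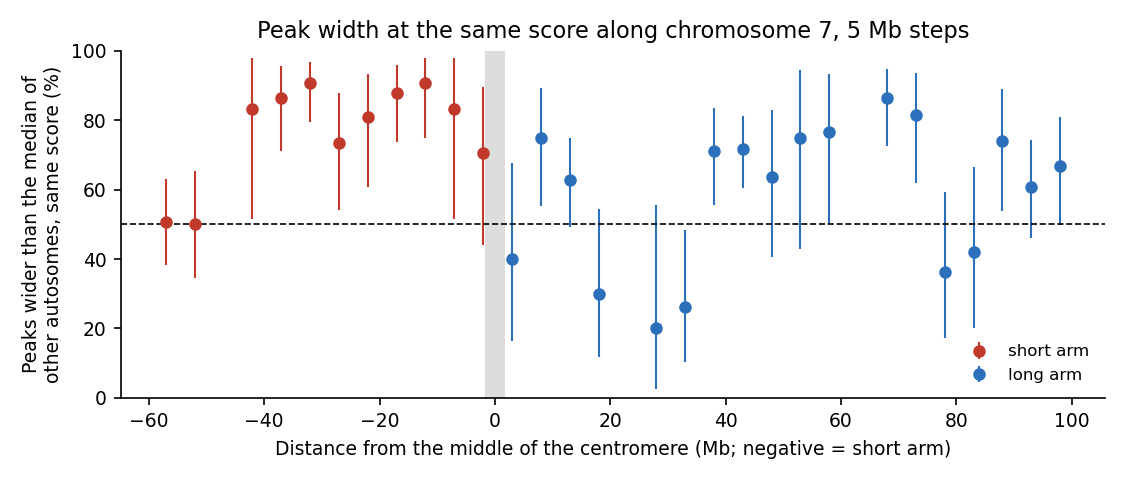
Share of peaks wider than the median of the other autosomes at the same score (y axis, percent, with exact 95% intervals) in 5 Mb steps holding 10 peaks or more, by distance from the middle of the centromere in Mb (x axis), short arm in red and long arm in blue. The dashed line marks 50%. The 2 leftmost steps, the end of the short arm, lie at 50.7% and 50%, and the inner short arm lies between 70.6% and 90.6%.

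Such steps were seen on other autosomes as well. In 10 Mb steps with 20 peaks or more, chromosome 7 had 14 steps whose shares ranged from 50.5% to 89.0%, with a median of 66.6%. The other autosomes had 207 steps from 4.35% to 90.1%, with a median of 48%. A share of 80% or more was reached by 3 of the 14 steps (21.4%), from 20 to 30 Mb, from 40 to 50 Mb and from 120 to 130 Mb, and by 5 of the 207 (2.42%), or 3.62% of all autosomal steps. No step of chromosome 7 lay under 50%, where 111 of the 207 others lay. In steps of this length the narrow stretch between 75 and 95 Mb is joined to wider neighbours, and the steps from 10 to 20 Mb and from 80 to 90 Mb held too few peaks.

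**Figure D5:**
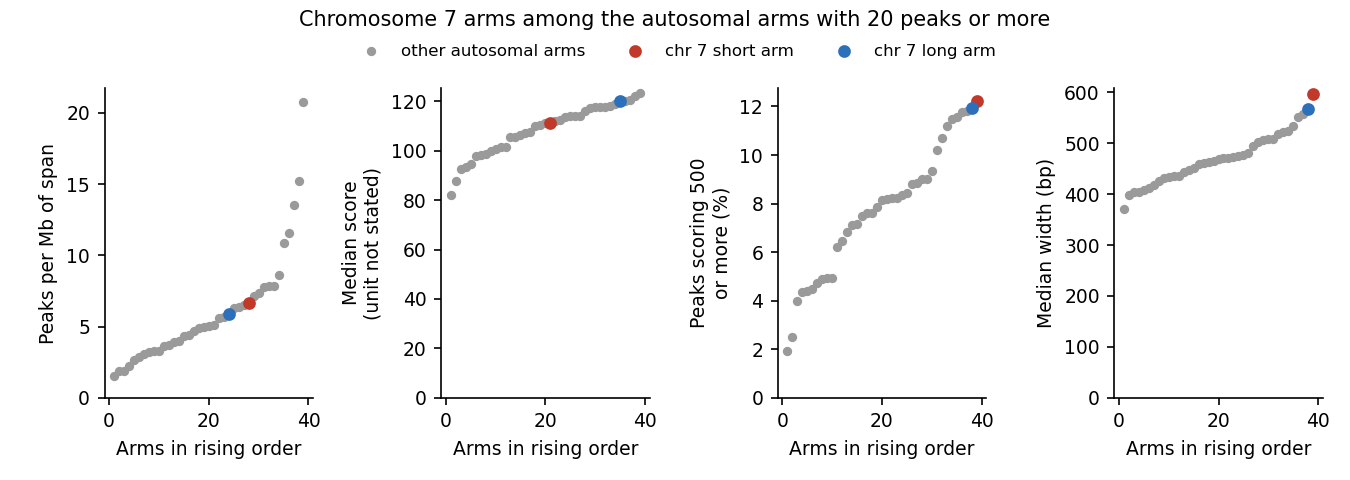
Peaks per Mb of span, median score (unit not stated), percent of peaks scoring 500 or more and median width in bp (y axes, left to right) for the 39 autosomal arms with 20 peaks or more, in rising order in each panel (x axis), with the chromosome 7 short arm in red and the long arm in blue. The arms of chromosome 7 lie in the middle of the order for density, at 6.67 and 5.89, and at its top for median width, at 596.5 and 567 bp.

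Close peaks were about as frequent as elsewhere. Another peak lay within 1 kb of 108 short-arm peaks (28.7%, exact 95% interval 24.2% to 33.6%) and 182 long-arm peaks (31.99%, 28.2% to 35.99%), against 32.2% of autosomal peaks. The median distance to the nearest peak was 12.7 kb on the short arm, 13.5 kb on the long arm and 14.3 kb on the other autosomes. Joining peaks at most 1 kb apart gave 313 regions on the short arm, of which 9 held 3 peaks or more (2.88%, 1.32% to 5.39%). The long arm gave 470 regions, of which 12 did (2.55%, 1.33% to 4.42%), and on the other autosomes 266 of 11021 (2.41%).

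The joined regions with the most peaks on chromosome 7 lay on the short arm, and none of their peaks reached a score of 500. A region of 4929 bp at 5459624 to 5464552 and another of 4204 bp at 555756 to 559959 held 6 peaks each, one fewer than the 7 of the richest region on the other autosomes. Their scores ran from 50.5 to 234 and from 56.5 to 184. The longest of the joined regions with 4 peaks or more, 4965 bp at 48124214 to 48129178, also lay on the short arm and held 5 peaks with scores from 51.4 to 142. In the window between 27 and 28 Mb, a region of 3324 bp at 27146127 to 27149450 held 4 peaks with scores from 59.3 to 154. On the long arm no region held more than 4 peaks, and 4 regions held that many. The one with the highest score, 523, covered 4839 bp at 128467177 to 128472015.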

How the data were processed

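ZFX ChIP-seq was measured in 1 library of DAOY cells, with 1 input that was not analysed here. Bowtie2 2.0.0 and hg19 are named, per the submitters' processing notes, with no role. MACS appears in the peak names of the file, with its version, threshold and control not given in the sources used here. The authors deposited start, end and score of each peak, and the unit of the score is not stated. Starts were taken as counted from 0 and are printed counted from 1.

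Chromosome 7 peaks were assigned to arms by their midpoint, with the centromere at 58.05 to 61.05 Mb. Other autosomes were split at the middle of their hg19 centromere, taken to whole Mb from general knowledge of the assembly, and 39 arms with 20 peaks or more were set in order. Density used the span between the outermost peaks of an arm. Rich windows were the 145 of 2799 autosomal 1 Mb windows with 19 peaks or more. For width at the same score, autosomal peaks were divided into 20 classes of equal size by score, and each peak was set against the median width of the other autosomes in its class. Shares have exact Clopper-Pearson 95% intervals and the ratio of densities an exact conditional binomial one. Both treat peaks as independent, which peaks of 1 library lying side by side are not, so they are too narrow. No test between conditions was possible with 1 library. Read depth is unknown. Protein-coding genes per arm were counted on GRCh38.p14, split at the widest interval between neighbouring gene starts, without comparing positions between builds.

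Members, measures and named stretches were chosen with earlier results of these data known. Named peaks were the 6 highest scores and the 2 widest of each arm and the region with the most joined peaks, and named windows the 3 richest. Others were chosen after their values were seen. The functions were tested on simulated lists. Analyses ran in Python 3.11.15 with scipy 1.17.1, pandas 2.3.3 and numpy 2.4.6, and plots in matplotlib 3.10.9.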

Additional observations from a re-analysis of the deposited data

How the results depend on the processing

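Of 53 alternatives for 12 results, 37 stayed within the interval of the main value, and 14 of the 53 were chosen after seeing the data. No paired analysis was possible because there was 1 library with peaks. The alternatives for gene starts and GC content were not run, since both needed hg19 genes or sequence. The ratio of short to long arm in peaks per Mb was 1.07 to 1.16 in 4 alternatives and 1.39 per gene, where the denominator itself changes. Scores of 200 or more were reached by 28.5% of short-arm and 34.4% of long-arm peaks, against 28.5% of autosomal peaks. This raises the limit, so the shares fall by construction. Joining close peaks lowered the short-arm share of wide regions to 60.4% and its share in rich windows to 22.4%. The cause was not tested. Both limits were set anew from the joined list, and the shares over all autosomal regions were not computed. Among peaks above the median score the shares in rich windows, defined anew, were 35.3% and 35.7%, and the autosomal share was not computed. The shares with a neighbour, which then had to be a stronger peak too, were 10.5% and 15.1%, against 15.7% of such autosomal peaks. A neighbour lay within 500 bp of 23.1% of short-arm and 28.6% of long-arm peaks, against 27.3% of autosomal peaks, and within 5 kb of 41.8% and 39.4%, against 40.1%. With 5 Mb windows the short arm had 0% and the long arm 14.2% of its peaks in rich windows, against 19.6% of autosomal peaks. No 5 Mb window of the short arm was thus among the richest, which does not measure how evenly its peaks lie. The share of peaks wider than other autosomes at the same score was 71.6% to 73.7% on the short arm and 60.2% to 62.9% on the long arm in 5 alternatives, and 68.4% and 58.5% with close peaks joined, below both intervals of the main values; the cause was not tested. Ranks among the 39 arms were taken in 4 of these 5 and with joined peaks. In each of these the short arm was the 1st and the long arm the 4th to 6th. The alternative that left out the richest windows of each arm was not ranked. Since the read depth is unknown, nothing can be said of sites too weak to be listed.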
